A study of Danio rerio with 3 samples.

Results

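The actin remodelling genes described here are 53 of the 19831 genes in a single-cell count table from zebrafish trunks. They were chosen by symbol, as genes named for the Arp2/3 complex, the WASP, WAVE and WASH families and their WIP partners, profilins, cofilin 1 and 2, twinfilins, beta thymosins, coronins, capping protein and capg, tropomyosins, coactosin and lcp1. Of 63 genes with such names, the 53 with at least 10 counts over the kept cells are the members. The members with the fewest counts were twf2a with 15 and wipf2b with 16, while wasla with 9, cfl2 with 8 and coro1b with 7 were the closest below the minimum.

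Embryos carried the transgenes spi2:Gal4;UAS:GFP and kdrl:mCherry, and single trunk cells were sorted at 36 hours post fertilization (hpf) for STRT-seq, a plate-based single-cell RNA assay. The DP cells, which the deposited cell table lists as kdrl+spi2+, come from 2 libraries, DP 1 and DP 2, and the SP cells (kdrl-spi2+) were not analysed here. Cells with at least 500 genes found were kept, which left 53 of 56 cells in DP 1 and 35 of 37 in DP 2. The deposited cell table lists 55 cells for DP 1 and 93 for DP 2, which differ from the 56 and 37 with counts. All cells share the genotype, stage and sort, so 3 states were set by the transcripts of 2 genes. The npsn cells had npsn, the gene of a neutrophil metalloprotease, at 500 CPM (counts per 1000000 counts of the cell) or more. The cdh5 cells had cdh5, the gene of the endothelial junction protein VE-cadherin, at 50 CPM or more. The neither cells were below both minimums, and 0 cells met both.

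The npsn cells numbered 5 in DP 1 and 2 in DP 2, the cdh5 cells 4 in each library, and the neither cells 44 in DP 1 and 29 in DP 2. The lowest npsn cell had 1521 CPM of npsn and the highest cell below the minimum 274 CPM. For cdh5 the values on either side of the minimum were 54.8 and 26.4 CPM. Summed over a state, DP 1 and DP 2 held 1388399 and 153267 counts in npsn cells, 658974 and 318420 in cdh5 cells, and 7184916 and 2642956 in neither cells. A single cell gave 94.4% of the npsn sum of DP 2, so each DP 2 value of npsn cells below is nearly that of 1 cell. Whether DP 1 and DP 2 were taken from separate embryos is not stated in the labels. The p-values below measure only how far the differences between states varied between these libraries, with the spread partly shared over genes. That variation may be technical, and with few cells in a sum it includes differences between cells.

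Actin filaments grow at one end and are taken apart at the other, and moving cells push their membrane forward with branched networks that the Arp2/3 complex builds when WASP or WAVE proteins switch it on. Profilin feeds actin monomers to growing ends, beta thymosin holds monomers in reserve, cofilin severs old filaments, and capping protein stops growth. Many of these proteins have forms typical of blood cells, such as WASP, coronin 1A and the bundling protein L-plastin, beside forms found in most tissues, and crawling neutrophils are known for a large pool of them.

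The states were checked against marker genes first. The 12 neutrophil markers together had 36817 and 45561 CPM in npsn cells of DP 1 and DP 2, 1392 and 848 CPM in cdh5 cells, and 1699 and 2387 CPM in neither cells. Most of the npsn sums came from lyz (22372.5 and 26066 CPM) and srgn (9071 and 12801 CPM). In DP 1 the marker adam8a went the other way, with 251 CPM in npsn cells and 584 CPM in cdh5 cells. So did mmp25b, with 17.3 and 56.1 CPM, though in DP 2 it had 241 CPM in npsn cells and 0 counts in cdh5 cells. Each other neutrophil marker was higher in npsn than in cdh5 cells of DP 1. In DP 2 mmp9 went the other way, with 0 counts in npsn cells and 1 in cdh5 cells. The 20 endothelial markers had 69.9 and 104 CPM in npsn cells, 1859 and 1931 CPM in cdh5 cells, and 259 and 535 CPM in neither cells. Single markers did not all follow these sums. In DP 2 flt4, plvapb and stab1 were at 0 counts in cdh5 cells but found in neither cells, as was cldn5b in DP 1. The reverse held for kdr, esama and flt1 in DP 1 and for she in DP 2. The shallowest npsn cell, in DP 2 with 8549 counts, had 1755 CPM of endothelial markers, all from 15 counts of sox7. That is within the range of single cdh5 cells, which ran from 154 to 2714 CPM in DP 1 and from 663 to 2440 CPM in DP 2. Macrophage markers summed to 148 and 294 CPM in npsn cells, 0 and 34.5 CPM in cdh5 cells and 12.25 and 4.92 CPM in neither cells, and the macrophage genes mpeg1.1, csf1ra, cd74a and grn1 were at 0 counts in every state. Epidermal markers summed to 85.7 and 13.0 CPM in npsn cells, 657 and 220 CPM in cdh5 cells and 25.3 and 134 CPM in neither cells. In cdh5 cells they were nearly all icn, with krt4, krt5, cyt1 and epcam at 0 counts, and their part in the results below was not tested. One cdh5 cell of DP 1 had only 1 of the 20 endothelial markers, against 7 in the next lowest cdh5 cell. The neither cells are no single cell type, since 2 of them had as much neutrophil marker signal as an npsn cell and one had 14 endothelial markers. The 7 stem and progenitor markers summed to 300 and 189 CPM in npsn cells, 917 and 540 CPM in cdh5 cells, and 651 and 316 CPM in neither cells. The cdh5 cells thus also carried transcripts of this list, with myb at 307 and 135 CPM and runx1 at 0 counts. Whether these cells were blood progenitors was not tested. The sort gene spi2 was at 5.04 and 6.52 CPM in npsn cells, 1417 and 437 CPM in cdh5 cells, and 187 and 354 CPM in neither cells.

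The members together made up 3.90% and 3.22% of all counts in npsn cells of DP 1 and DP 2, 0.883% and 0.800% in cdh5 cells, and 1.33% and 0.862% in neither cells. Over single cells the share ran from 1.89% to 4.51% in npsn cells, from 0.193% to 1.17% in cdh5 cells, and from 0.183% to 2.86% in neither cells. The npsn and cdh5 cells did not overlap in this share. Most of the member counts in each state came from pfn1 and tmsb4x, so the share mainly describes these genes. In npsn cells pfn1 was at 13571 and 9258 CPM and tmsb4x at 16096 and 13865 CPM. In cdh5 cells pfn1 was at 1270 and 656 CPM and tmsb4x at 3607 and 4375 CPM. The share without them was not computed.

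Most members that changed between npsn and cdh5 cells were higher in npsn cells. Of the 39 members that passed a filter on low counts by state and were tested, 10 were higher in npsn cells, beside 2.41% of all 6543 genes tested. They were 4 Arp2/3 subunit genes, the WASP gene wasb, the profilin pfn1, the thymosin tmsb4x, the coronin coro1a, the coactosin-like gene cotl1 and the L-plastin gene lcp1. The other profilins, pfn2 and pfn2l, and the tropomyosin tpm4a were lower in npsn cells, which made 3 members beside 1.3% of all genes. The test was edgeR's quasi-likelihood test on counts summed by library and state, with library as a block and Benjamini-Hochberg adjustment over all genes. The median log2 difference (npsn minus cdh5) was 2.99 over the 39 tested members and -0.0048 over all genes. Over these members it was 2.28 with the 7 genes at 0 counts in one state taken at a floor of 3 counts there. At an unadjusted p under 0.05 the tested members numbered 22 higher and 4 lower, beside 10.2% and 9.81% of all genes. A gene passes the filter on low counts if it is high in a single state, so this median describes the tested members only. With DESeq2 size factors the median over all genes was -0.30, and the members called higher and lower kept their directions. The members' median ran between 1.57 with lower minimums of npsn and cdh5 (42 tested) and 4.66 with higher minimums, where the median over all genes was 2.78. With no count filter it was 2.03 over all 53 members.

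**Figure D1:**
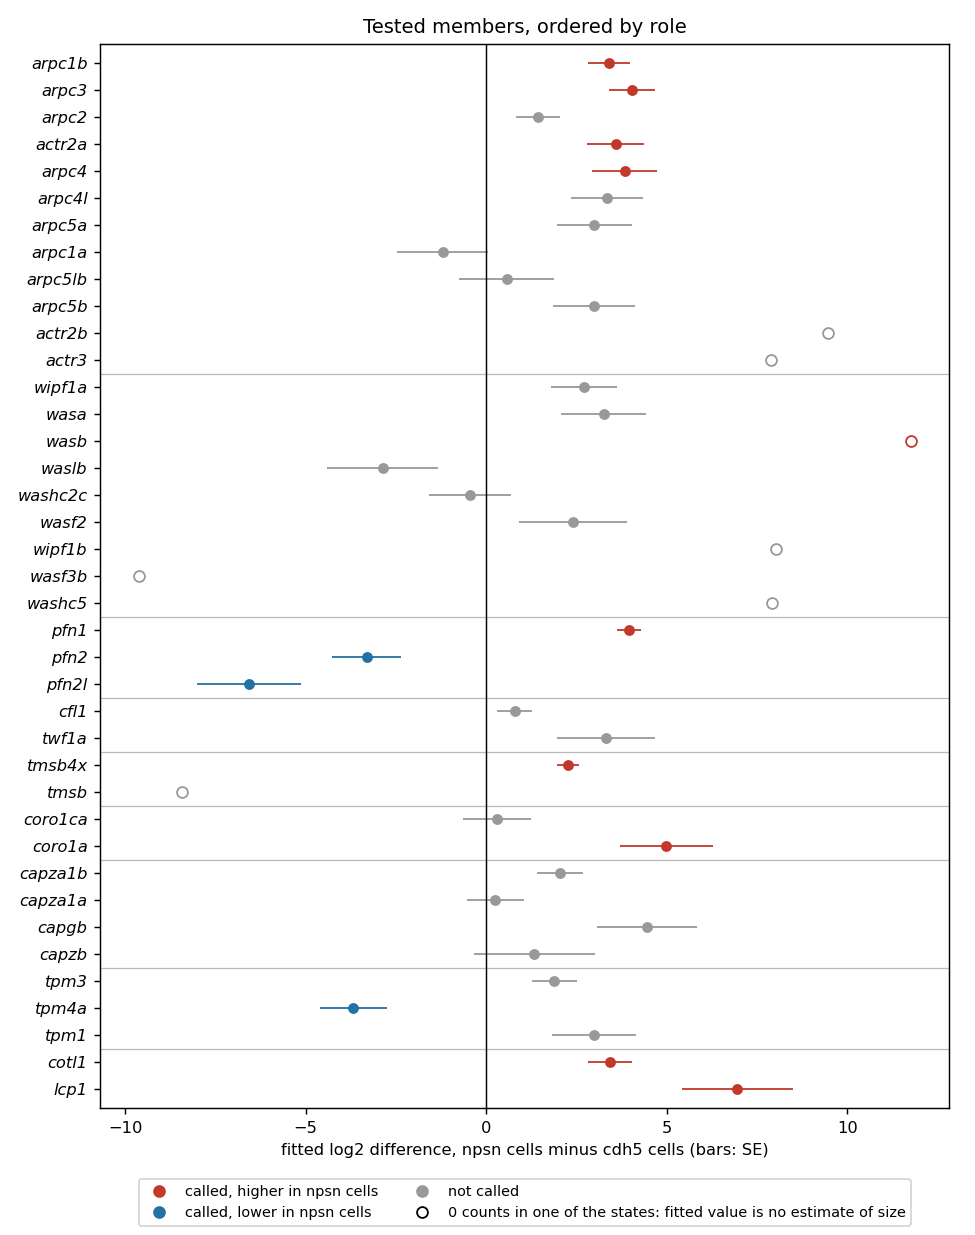
Fitted log2 difference, npsn cells minus cdh5 cells, for each of the 39 tested members, grouped by role with SE bars. Of these, 10 were called higher (red) and 3 lower (blue) in npsn cells, and open symbols mark genes with 0 counts in one state, whose fitted value is no estimate of size.

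The Arp2/3 complex, which starts a new filament as a branch on an old one, was the role with the most tested and the most called members. Of its 13 genes 12 were tested, 4 were higher in npsn than in cdh5 cells and 8 did not pass the test. Beside these stand 10 higher of all 39 tested members and 2.41% of all genes, so the count does not set this role apart. Summed over the 13 genes, the level was 4194 and 5141 CPM in npsn cells, 821 and 619 CPM in cdh5 cells, and 1713 and 950 CPM in neither cells of DP 1 and DP 2. The 2 npsn sums were above those of both other states.

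The subunit gene arpc3 had 1162 and 1422 CPM in npsn cells of DP 1 and DP 2, 54.6 and 163 CPM in cdh5 cells, and 239 and 159 CPM in neither cells. Both npsn values were above the 4 others. Its log2 difference between npsn and cdh5 cells was 4.05 ± 0.64 (SE; 4.83 in DP 1 and 3.34 in DP 2), with an adjusted p of 0.000206 by edgeR. The subunit gene arpc1b, whose human counterpart is the form of its subunit that prevails in blood cells, had 866 and 1820 CPM in npsn cells, 182 and 107 CPM in cdh5 cells, and 489 and 417 CPM in neither cells. The sums of the 3 states did not overlap, with neither cells in the middle, and the share of all genes with such sums was not computed. Single cells overlapped, from 234 to 1914 CPM in npsn cells, from 0 to 485 CPM in cdh5 cells and from 0 to 1416 CPM in neither cells. Of the 73 neither cells, 47 were above the lowest npsn cell. The log2 difference of arpc1b (npsn minus cdh5) was 3.40 ± 0.58, with an edgeR adjusted p of 0.00052.

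The Arp2 gene actr2a had 432 and 731 CPM in npsn cells, 33.4 and 97.4 CPM in cdh5 cells, and 187 and 62.4 CPM in neither cells. Its npsn values stood apart while cdh5 and neither cells overlapped, and the log2 difference was 3.58 ± 0.79 (npsn minus cdh5, edgeR adjusted p = 0.00777). The subunit gene arpc4 had 334 and 287 CPM in npsn cells, 47.0 and 6.28 CPM in cdh5 cells, and 169 and 42.0 CPM in neither cells. Its log2 difference was 3.83 ± 0.91 (npsn minus cdh5, edgeR adjusted p = 0.0121), with 3.25 in DP 1 and 5.53 in DP 2. The gene arpc4l, chosen after its values were seen, is named as a copy of arpc4, and reads of similar sequence may have been split between them. It had 677 counts and 1 count in npsn cells of DP 1 and DP 2, and 40 and 0 counts in cdh5 cells, with an edgeR adjusted p of 0.0548.

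The scaffold subunit gene arpc2, also chosen after its values were seen, showed a smaller gap, with 534 and 555 CPM in npsn cells, 297 and 210 CPM in cdh5 cells, and 285 and 132 CPM in neither cells. Its log2 difference was 1.43 (npsn minus cdh5, edgeR adjusted p = 0.178). The Arp3 gene actr3 had 20 counts in npsn cells and 0 in cdh5 cells, and the second Arp2 gene actr2b had 47 in npsn cells and 0 in cdh5 cells. Both missed the threshold. Of the counts of the arpc1 pair, arpc1b held 98.0% and 100% in npsn cells, 75.5% and 87.2% in cdh5 cells, and 90.6% and 93.9% in neither cells of DP 1 and DP 2. The npsn share had a Clopper-Pearson 95% interval of 97.0% to 98.7% in DP 1, against 68.0% to 81.9% in cdh5 cells. These intervals, like all below, cover counting error only, and it is not known here whether the deposited counts are molecules or PCR reads.

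Of the 14 genes for nucleation promoters and their partners, 9 were tested and 1 was higher in npsn than in cdh5 cells. That gene, wasb, encodes one of the zebrafish WASP proteins, which in mammals are restricted to blood cells and switch on the Arp2/3 complex. It had 242 and 71.8 CPM in npsn cells of DP 1 and DP 2, 0 counts in cdh5 cells of either library, and 33.5 and 18.2 CPM in neither cells. Counted over both libraries these were 347 counts in npsn cells and 0 in the 8 cdh5 cells (edgeR adjusted p = 0.00826). Against a floor of 3 counts over the state, the level was 73.3-fold higher in npsn cells. This floor, here and below, takes counts as independent and leaves out differences between cells, so such a fold is no firm bound. Of the nonzero entries of the DP cells 19.7% were 1, and the median was 8. The other WASP gene, wasa, had 104 and 97.9 CPM in npsn cells, 21.2 and 0 CPM in cdh5 cells, and 84.8 and 63.6 CPM in neither cells. Its log2 difference between npsn and cdh5 cells was 3.26 ± 1.17 (edgeR adjusted p = 0.113). The WASP partner gene wipf1a had 130 and 261 CPM in npsn cells, 47.0 and 9.42 CPM in cdh5 cells, and 127 and 114 CPM in neither cells, with an edgeR adjusted p of 0.0987 for npsn minus cdh5. Across the alternatives with a test the adjusted p ran between 0.0375 and 0.584 for wasa and between 0.0282 and 0.515 for wipf1a, and for both genes it was under 0.05 with DESeq2 alone.

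A further pair of genes of this role had their counts mainly outside npsn cells, and both were chosen after their values were seen. The WAVE3 gene wasf3b had 0 counts in npsn cells of either library, 34.9 and 151 CPM in cdh5 cells, and 4.73 and 4.54 CPM in neither cells. It was 37.3-fold lower in npsn than in cdh5 cells against the same floor, but its edgeR adjusted p was 0.109. The N-WASP gene waslb, whose protein does the work of WASP in most tissues, had 6.48 and 0 CPM in npsn cells, 89.5 and 3.14 CPM in cdh5 cells, and 12.4 and 23.1 CPM in neither cells. Its cdh5 level came almost wholly from DP 1. Of the summed counts of wasa, wasb and waslb, waslb held 1.84% in npsn cells of DP 1 (9 of 489), 80.8% in cdh5 cells of DP 1 (59 of 73, interval 69.9% to 89.1%) and 9.48% in neither cells of DP 1. In cdh5 cells of DP 2 these genes had 1 count in all, so no share can be read there.

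In the profilins, paralogues were called in opposite directions: all 3 were tested and all 3 passed. Fitted values also differed in direction within other families, but without calls on both sides. The main profilin gene, pfn1, had 13571 and 9258 CPM in npsn cells of DP 1 and DP 2, 1270 and 656 CPM in cdh5 cells, and 5336 and 2227 CPM in neither cells. The sums of the states did not overlap and kept the same order in both libraries. Its log2 difference between npsn and cdh5 cells was 3.95 ± 0.34 (3.87 in DP 1 and 4.04 in DP 2), with an edgeR adjusted p of 6.52e-09. Over single cells, which are not replicates, the 7 npsn cells ran from 6434 to 16623 CPM, the 8 cdh5 cells from 317 to 1604 CPM, and the 73 neither cells from 131 to 11277 CPM. Every npsn cell was thus above every cdh5 cell, and 9 neither cells were above the lowest npsn cell.

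The profilin 2 gene pfn2, known in mammals for its high level in neurons, had 22.3 and 0 CPM in npsn cells, 281 and 210 CPM in cdh5 cells, and 124 and 130 CPM in neither cells. The sums of the 3 states did not overlap, in the reverse of the order of pfn1. Single cells overlapped, from 0 to 53.6 CPM in npsn cells, from 0 to 663 CPM in cdh5 cells and from 0 to 1315 CPM in neither cells. The log2 difference was -3.31 ± 0.95 (npsn minus cdh5, edgeR adjusted p = 0.0449), with -3.15 in DP 1 and -7.77 in DP 2. The DP 2 value is no estimate of size, since npsn cells had 0 counts there. The call was kept in 9 of 14 alternatives, with an adjusted p between 0.00201 and 0.669. Its copy pfn2l had 3 counts in npsn cells and 268 in cdh5 cells over both libraries. That is 2.16 and 0 CPM in npsn cells of DP 1 and DP 2, 319 and 182 CPM in cdh5 cells, and 39.1 and 56.4 CPM in neither cells. The summed level was 141-fold lower in npsn than in cdh5 cells (exact 95% interval 47.7 to 688; edgeR adjusted p = 0.00763). A single cell gave 72.4% of the pfn2l counts of cdh5 cells in DP 1 and 55.2% in DP 2. Reads that match both pfn2 and pfn2l may have been split between them, but both genes moved the same way.

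As a share of all profilin counts, pfn1 held 99.8% and 100% in npsn cells of DP 1 and DP 2, 67.9% and 62.6% in cdh5 cells, and 97.0% and 92.3% in neither cells. The cdh5 intervals were 65.3% to 70.5% in DP 1 and 57.1% to 67.8% in DP 2, below every value of the other states. The rest of the profilin counts in cdh5 cells was divided between pfn2 with 15.0% and 20.1% and pfn2l with 17.0% and 17.4%. Counts are not scaled to transcript length, so a share is compared between states and not between genes.

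**Figure D2:**
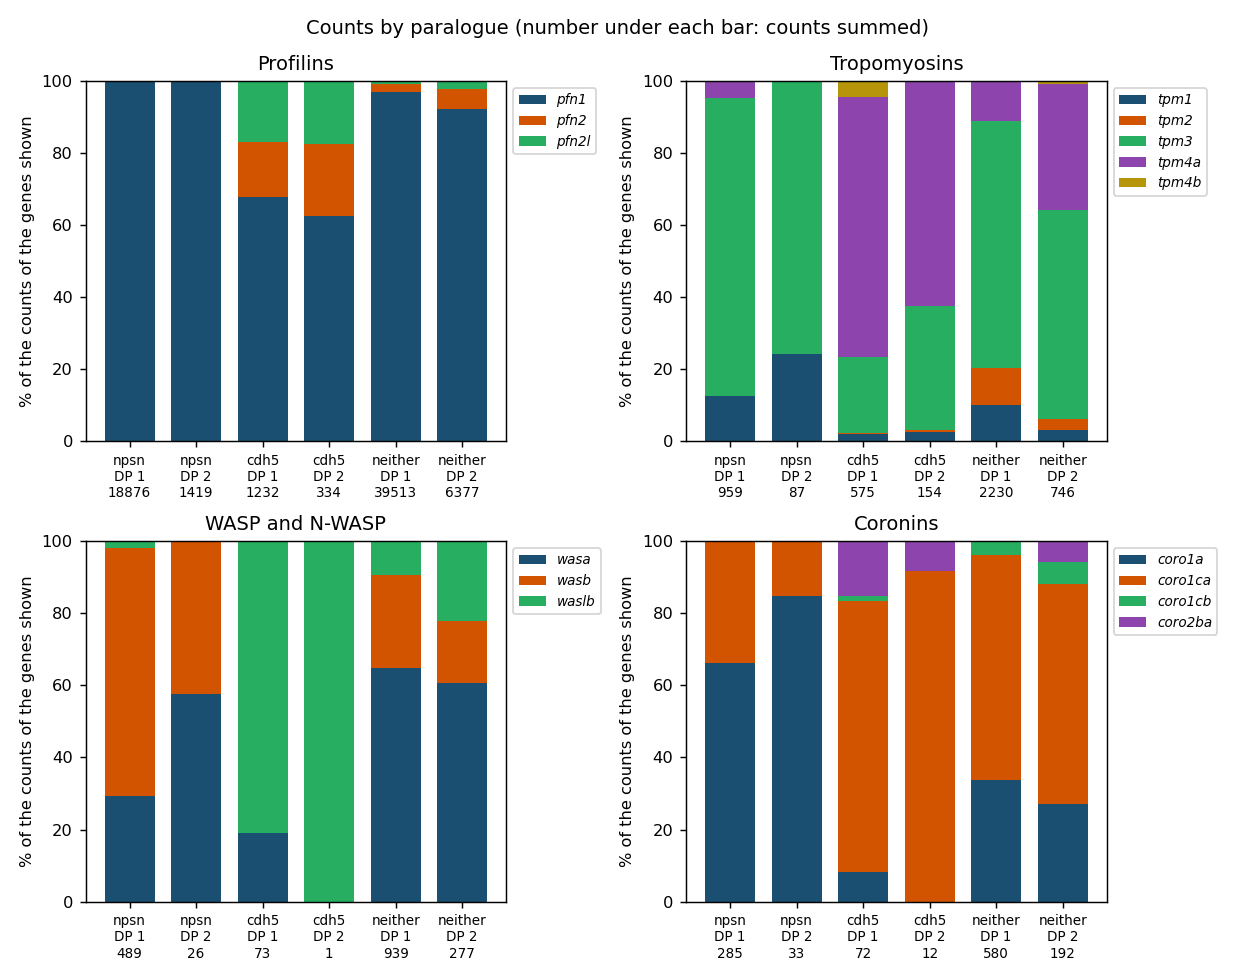
Percent of the counts of each family held by each paralogue, for npsn, cdh5 and neither cells in DP 1 and DP 2, with the summed counts under each bar. The pfn1 share was 67.9% and 62.6% in cdh5 cells, tpm4a held 72.3% and 62.3% of tropomyosin counts there, and the WASP and N-WASP bar of cdh5 cells in DP 2 rests on 1 count.

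Of the 4 cofilin and twinfilin genes 2 were tested, and neither passed. The severing protein gene cfl1 had 846 and 1064 CPM in npsn cells of DP 1 and DP 2, 574 and 829 CPM in cdh5 cells, and 765 and 547 CPM in neither cells. Its log2 difference between npsn and cdh5 cells was 0.79 ± 0.49 (edgeR adjusted p = 0.363), and the npsn values were above the cdh5 values in both libraries. The twinfilin gene twf1a, whose protein binds monomers and filament ends, had 72.03 and 39.1 CPM in npsn cells, 7.59 and 9.42 CPM in cdh5 cells, and 23.9 and 15.9 CPM in neither cells. The sums of the states did not overlap, but these levels rest on 106 counts in npsn cells and 8 in cdh5 cells, and the edgeR adjusted p was 0.167. Single cells ran from 34.6 to 117 CPM in npsn cells, from 0 to 37.2 CPM in cdh5 cells and from 0 to 109 CPM in neither cells.

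Of the 4 beta thymosin genes 2 were tested and 1 passed. The monomer-binding gene tmsb4x had the most counts of any member and was at 16096 and 13865 CPM in npsn cells of DP 1 and DP 2, 3607 and 4375 CPM in cdh5 cells, and 3946 and 3705 CPM in neither cells. The npsn values stood apart while cdh5 and neither cells overlapped. The log2 difference between npsn and cdh5 cells was 2.26 ± 0.30 (2.61 in DP 1 and 1.88 in DP 2), with an edgeR adjusted p of 2.05e-05. Single npsn cells ran from 9241 to 19074 CPM, all above the highest cdh5 cell at 5095 CPM. The gene tmsb had 0 counts in npsn cells of both libraries, 0 and 72.2 CPM in cdh5 cells, and 55.3 and 24.2 CPM in neither cells, with an edgeR adjusted p of 0.317 for npsn minus cdh5. The untested gene tmsb1, chosen after its values were seen, had 96 counts in npsn cells, all in DP 1, and 0 counts in cdh5 cells.

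Coronins bind the sides of filaments and the Arp2/3 complex. Of 4 genes 2 were tested and 1 passed. The leukocyte form coro1a had 136 and 183 CPM in npsn cells of DP 1 and DP 2, 9.11 and 0 CPM in cdh5 cells, and 27.3 and 19.7 CPM in neither cells. The sums of the 3 states did not overlap. Single cells ran from 0 CPM in each state, up to 205 CPM in npsn cells, 17.1 CPM in cdh5 cells and 112 CPM in neither cells. The log2 difference was 5.0 ± 1.3 (npsn minus cdh5, edgeR adjusted p = 0.0252), with 4.19 in DP 1 and 7.79 in DP 2. The DP 2 value is no estimate of size, since cdh5 cells had 0 counts there. The call was kept in 9 of 13 alternatives, with an adjusted p between 0.00181 and 0.484, and it was lost with DESeq2 size factors (0.0582). The broadly found form coro1ca had 69.1 and 32.6 CPM in npsn cells, 81.9 and 34.5 CPM in cdh5 cells, and 50.4 and 44.3 CPM in neither cells. Its log2 difference was 0.30 ± 0.95 (npsn minus cdh5, edgeR adjusted p = 0.894), and its sign turned to -0.0367 with DESeq2. The share of coronin counts held by coro1a was 66.3% and 84.8% in npsn cells, 8.33% and 0% in cdh5 cells, and 33.8% and 27.1% in neither cells, though DP 2 had only 33 coronin counts in npsn cells and 12 in cdh5 cells.

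All 4 capping genes were tested and none passed for npsn minus cdh5. The capping protein subunit gene capza1b had 779 and 333 CPM in npsn cells, 284 and 72.2 CPM in cdh5 cells, and 257 and 137 CPM in neither cells, with a log2 difference of 2.05 ± 0.64 between npsn and cdh5 cells (edgeR adjusted p = 0.0713). Its paralogue capza1a had 170 and 84.8 CPM in npsn cells, 168 and 113 CPM in cdh5 cells, and 87.0 and 34.1 CPM in neither cells. Here npsn and cdh5 cells overlapped, and the fitted log2 difference of 0.25 changed sign to -0.0283 with DESeq2 size factors. The share of capza1a in the counts of the pair was 17.9% and 20.3% in npsn cells, 37.2% and 61.0% in cdh5 cells, and 25.3% and 19.96% in neither cells. The gelsolin-family gene capgb, whose product caps filament ends, had 136 and 104 CPM in npsn cells, 0 and 22.0 CPM in cdh5 cells, and 9.88 and 6.43 CPM in neither cells. Its edgeR adjusted p for npsn minus cdh5 was 0.0668. Across the alternatives with a test it ran between 0.0163 (any count of cdh5) and 0.672 (higher minimums of npsn and cdh5), and it was 0.0403 with DESeq2.

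Tropomyosins wrap filaments and set which proteins reach them. Of 5 genes 3 were tested and 1 passed, in the direction of the cdh5 cells. The gene tpm4a had 32.4 and 0 CPM in npsn cells of DP 1 and DP 2, 631 and 301 CPM in cdh5 cells, and 34.7 and 98.4 CPM in neither cells. The cdh5 values stood apart from both other states, but a single cell gave 74.0% of the tpm4a counts of cdh5 cells in DP 1 and 85.4% in DP 2. The log2 difference was -3.68 ± 0.92 (npsn minus cdh5, edgeR adjusted p = 0.0189), with -3.80 in DP 1 and -8.29 in DP 2. The DP 2 value is no estimate of size, since npsn cells had 0 counts there. Without the deepest cell of each state in each library the fitted log2 difference was -2.01 (edgeR adjusted p = 0.207). The tropomyosin with the most counts, tpm3, had 571 and 431 CPM in npsn cells, 184 and 166 CPM in cdh5 cells, and 213 and 163 CPM in neither cells, with a log2 difference of 1.89 ± 0.63 between npsn and cdh5 cells (edgeR adjusted p = 0.0923).

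Of all tropomyosin counts, tpm4a held 4.69% and 0% in npsn cells, 72.3% and 62.3% in cdh5 cells, and 11.2% and 34.9% in neither cells. The gene tpm3 held 82.7% and 75.9% in npsn cells, 21.0% and 34.4% in cdh5 cells, and 68.5% and 57.9% in neither cells. The summed level of the 5 tropomyosins was 691 and 568 CPM in npsn cells and 873 and 484 CPM in cdh5 cells, so the npsn and cdh5 cells overlapped in the sum. Markers of smooth muscle and mesenchyme, cells rich in tropomyosin, summed to 0.720 and 6.52 CPM in npsn cells, 395 and 132 CPM in cdh5 cells, and 11.8 and 14.8 CPM in neither cells. In cdh5 cells that signal was nearly all postnb, while acta2, pdgfrb, twist1a and dcn were at 0 counts there, and its part in the tropomyosin result was not tested. Skeletal muscle markers summed to 10.8 and 163 CPM in npsn cells of DP 1 and DP 2, 10.6 and 242 CPM in cdh5 cells, and 15.2 and 146 CPM in neither cells. They were thus higher in DP 2 in every state, and their part was not tested either.

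Both genes of the last role passed. The coactosin-like gene cotl1, whose product binds filaments, had 1276 and 835 CPM in npsn cells of DP 1 and DP 2, 178 and 72.2 CPM in cdh5 cells, and 175 and 103 CPM in neither cells. The npsn values stood apart, with a log2 difference of 3.44 ± 0.61 (npsn minus cdh5, edgeR adjusted p = 0.000852), and all 7 npsn cells, at 549 CPM or more, were above the highest cdh5 cell at 366 CPM. A single cell gave 91.5% of the cotl1 counts of cdh5 cells in DP 1 and 95.7% in DP 2. The gene lcp1 encodes L-plastin, a filament bundler of leukocytes. It had 265 and 84.8 CPM in npsn cells, 1.52 and 3.14 CPM in cdh5 cells, and 52.2 and 43.1 CPM in neither cells. The summed counts were 381 in npsn cells and 2 in cdh5 cells, a level 121-fold higher in npsn cells (exact 95% interval 33.2 to 1001; edgeR adjusted p = 0.00763). The shallow npsn cell of DP 2 had 0 lcp1 counts, and the other 6 npsn cells were above all cdh5 cells.

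**Figure D3:**
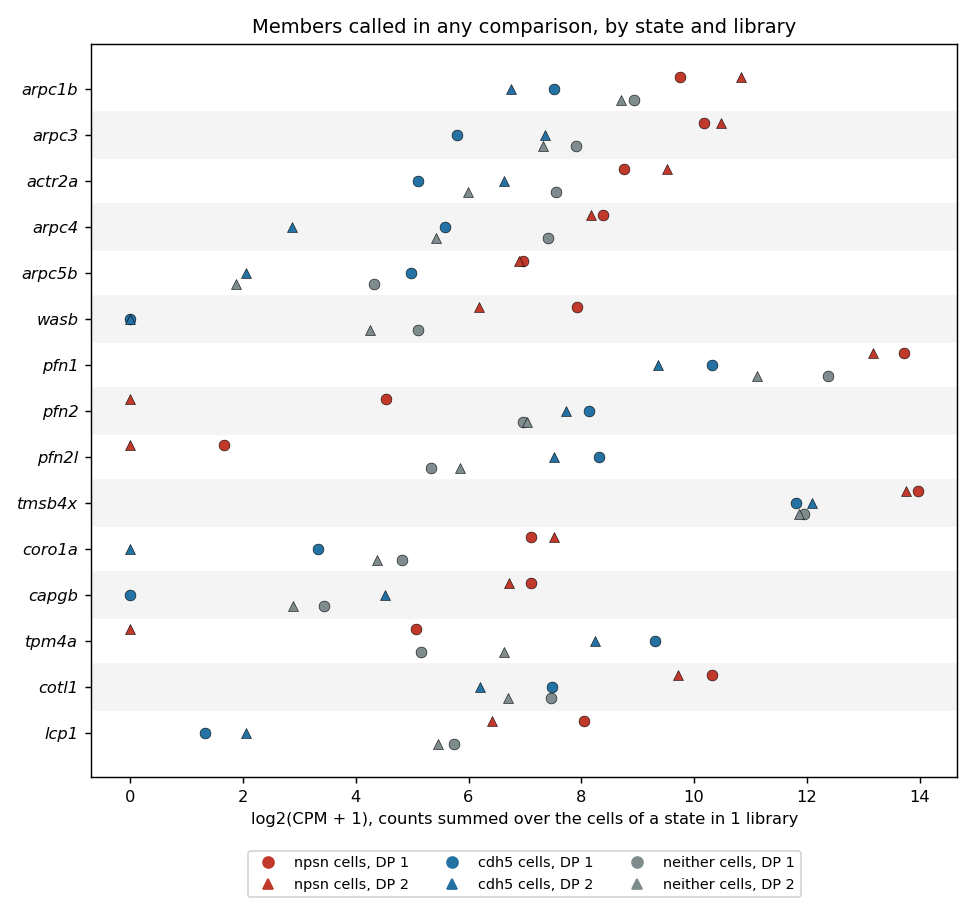
Level of the 15 members called in any comparison, as log2(CPM + 1) of counts summed by state in DP 1 (circles) and DP 2 (triangles). In npsn cells (red) pfn1, tmsb4x, arpc3 and cotl1 stood above both cdh5 cells (blue) and neither cells (grey) in both libraries, and pfn2, pfn2l and tpm4a were highest in cdh5 cells.

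The 13 calls between npsn and cdh5 cells, 33.3% of the tested members beside 3.71% of all genes, depended on how the states were drawn and on deep cells. With minimums of 2000 CPM for npsn and 200 CPM for cdh5, edgeR called 0 members (15 higher and 1 lower at an unadjusted p under 0.05; adjusted p of pfn1 0.0954), beside 0.0961% of all genes. That setting left 1 cdh5 cell in each library, and the one in DP 1 is the cell with 1 of the 20 endothelial markers. With minimums of 100 and 10 CPM 5 members were called (11.9%, beside 0.626% of all genes). Without the deepest cell of each state in each library, which left 8549 npsn counts in DP 2, 6 were called (18.2%, beside 5.23%), and with each cell thinned to 20217 counts 3 of 18 tested (16.7%, beside 3.58%). Of the alternatives with a test, the call was kept in 12 of 14 for pfn1, tmsb4x and cotl1, in 12 of 13 for lcp1, in 11 of 14 for arpc1b, arpc3 and pfn2l, in 11 of 13 for wasb, and in 10 of 14 for actr2a, arpc4 and tpm4a. Mitotic markers, summed, were at 1412 and 71.8 CPM in npsn cells, 901 and 757 CPM in cdh5 cells, and 1044 and 409 CPM in neither cells of DP 1 and DP 2, and their part in these differences was not tested.

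Against the neither cells, which share the npsn sums of the comparison above, 6 of the 39 tested members were higher in npsn cells and 0 lower, beside 1.62% and 0.397% of all 6543 genes. They were tmsb4x, pfn1, cotl1, arpc3, capgb and arpc5b. The median log2 difference (npsn minus neither) was 1.51 over the tested members and -0.28 over all genes tested, and it was 0.98 over members without the deepest cells. At an unadjusted p under 0.05 the tested members numbered 17 higher and 3 lower, beside 6.77% and 5.72% of all genes. With DESeq2 5 were higher and 2 lower, beside 104 and 67 of all 6543 genes, and the 2 lower members were pfn2 and pfn2l.

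The thymosin tmsb4x differed by 2.04 ± 0.30 on the log2 scale (npsn minus neither, edgeR adjusted p = 0.000101) and pfn1 by 1.75 ± 0.31 (adjusted p = 0.000996). For cotl1 the log2 difference was 3.0 ± 0.56 (edgeR adjusted p = 0.00181) and for arpc3 2.75 ± 0.54 (adjusted p = 0.00346). The capping gene capgb was called here, with a log2 difference of 4.02 ± 0.95 (npsn minus neither, edgeR adjusted p = 0.0179), on 205 counts in npsn cells and 88 in neither cells. Its adjusted p was 0.0596 with DESeq2, and across the alternatives with a test it ran between 0.00267 and 0.707. The Arp2/3 subunit gene arpc5b had 125 and 117 CPM in npsn cells of DP 1 and DP 2, 30.4 and 3.14 CPM in cdh5 cells, and 18.9 and 2.65 CPM in neither cells. Its log2 difference was 3.51 ± 0.92 (npsn minus neither, edgeR adjusted p = 0.0355), with 2.95 in DP 1 and 4.94 in DP 2. This call was kept in 7 of 13 alternatives, with an adjusted p between 0.0119 and 0.865, and it was lost with DESeq2 size factors (0.0625) and with no count filter (0.168). For arpc5b all 18 counts of DP 2 npsn cells came from 1 cell. The pfn1 call was lost without the library block (adjusted p = 0.104), and without the deepest cell of each state in each library 1 member was called (3.03%, beside 0.926% of all genes). Calls were kept in 12 of 14 alternatives for tmsb4x, cotl1 and arpc3, in 11 of 14 for pfn1 and in 9 of 14 for capgb.

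For the other genes called between npsn and cdh5 cells, the fitted values against neither cells were nearer to 0 and did not pass in the main fit. For wasb, with 0 counts in cdh5 cells, the fitted value against those cells is no estimate of size. In the main fit the log2 difference (npsn minus neither) was 2.76 ± 0.81 for coro1a (edgeR adjusted p = 0.0775), 2.78 ± 0.86 for wasb (0.114), 2.07 ± 0.80 for lcp1 (0.253) and 1.54 ± 0.50 for arpc1b (0.137). Robust fitting called coro1a (edgeR adjusted p = 0.0437) and actr2a (log2 difference 2.25, edgeR adjusted p = 0.0211) higher in npsn than in neither cells. For tpm4a it was -1.06 ± 0.99 (edgeR adjusted p = 0.687), with 0.20 in DP 1 and -7.10 in DP 2. That DP 2 value is no estimate of size either, with 0 counts in npsn cells. The gap between these comparisons is itself the contrast of cdh5 with neither cells, given next.

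Between cdh5 and neither cells a single member passed. The profilin pfn1 was lower in cdh5 cells by -2.20 ± 0.32 on the log2 scale (edgeR adjusted p = 0.000386), with -2.22 in DP 1 and -2.18 in DP 2. That is 1 lower member of 39 beside 0.122% of all 6543 genes, and 0 higher members beside 0.229%. At an unadjusted p under 0.05 the tested members numbered 3 higher and 9 lower, beside 6.71% and 6.04% of all genes, and the median log2 difference (cdh5 minus neither) was -0.63 over tested members and -0.29 over all genes. Across the alternatives the members' median ran between -3.18 with higher minimums, where that of all genes was -3.09, and -0.32 with DESeq2 size factors. With DESeq2 size factors the median over all genes was 0.03 and the calls over all genes were 6 higher and 7 lower, against 15 and 8. The pfn1 call was lost without the library block (edgeR adjusted p = 0.0721) and with any count of cdh5 as the minimum (edgeR adjusted p = 0.167). DESeq2 called 0 members, beside 0.611% of all genes.

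The 7 members with the lowest adjusted p above the threshold stood on both sides. Higher in cdh5 cells by fitted value were wasf3b at 3.59 ± 1.05, tpm4a at 2.62 ± 0.77 and pfn2l at 2.16 ± 0.74 on the log2 scale (cdh5 minus neither, edgeR adjusted p = 0.111, 0.111 and 0.199). The value for tpm4a was 4.0 in DP 1 and 1.19 in DP 2, and that for pfn2l 2.84 and 1.26. Lower in cdh5 cells by fitted value were arpc1b at -1.86 ± 0.55 and wasa at -2.76 ± 1.11 (edgeR adjusted p = 0.116 and 0.296). The L-plastin gene lcp1 had 2 counts in cdh5 cells and 489 in neither cells, a level 24.3-fold lower in cdh5 cells (exact 95% interval 6.70 to 201), with an edgeR adjusted p of 0.223. The WASP gene wasb had 0 counts in cdh5 cells and 289 in neither cells, 9.58-fold lower against the floor of 3 counts, with an edgeR adjusted p of 0.310.

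**Figure D4:**
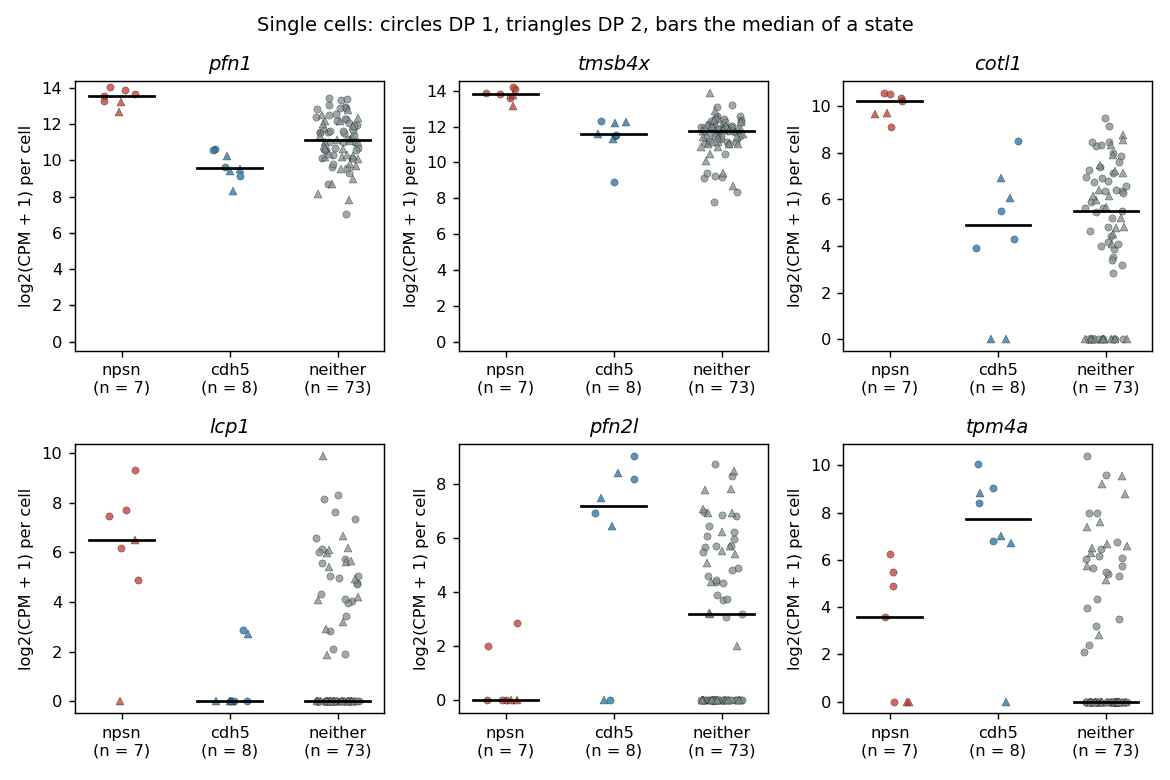
Level per cell, as log2(CPM + 1), of pfn1, tmsb4x, cotl1, lcp1, pfn2l and tpm4a in 7 npsn, 8 cdh5 and 73 neither cells, with a bar at each median. The npsn cells lay above every cdh5 cell for pfn1, tmsb4x and cotl1, while the neither cells spread over both ranges for pfn1.

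The spread of the neither cells was wide for most members. For lcp1 they ran from 0 to 952 CPM with a median of 0, for cotl1 from 0 to 715 CPM with a median of 44.1, and for arpc1b from 0 to 1416 CPM with a median of 322. For pfn2 they ran from 0 to 1315 CPM with a median of 84.2 and for tpm4a from 0 to 1343 CPM with a median of 0. Totals per cell ran from 4818 to 903548 counts in neither cells, so a value of 0 in a shallow cell does not show that the gene was absent.

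The 14 members not tested had between 15 counts (twf2a) and 256 counts (tpm2) over the kept cells. The muscle tropomyosin gene tpm2 had 1 count in npsn cells, 2 in cdh5 cells and 253 in neither cells. The thymosin tmsb2 and the WIP-family gene wipf2a had 0 counts in npsn and in cdh5 cells. The second tpm4 gene, tpm4b, had 25 counts in cdh5 cells, all in a single cell of DP 1, and 0 in npsn cells.

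Other genes of actin regulation, 68 on a list of actins, formins, WAVE complex, gelsolins, crosslinkers, myosins and regulators, were read beside the members, and 38 of the 61 in the table were tested. Of these 4 were higher and 2 lower in npsn than in cdh5 cells, beside 2.41% and 1.3% of all genes. Against neither cells 3 were higher in npsn cells, beside 1.62% of all genes. Between cdh5 and neither cells 0 passed, beside 0.229% higher and 0.122% lower of all genes. DESeq2 also called 0 there, beside 0.611% of all genes. At an unadjusted p under 0.05 (edgeR) 7 were higher and 3 lower in cdh5 than in neither cells, beside 6.71% and 6.04% of all genes. The median log2 difference of the wider list was 0.47 for npsn minus cdh5. With lower minimums of npsn and cdh5 1 gene of this list was called higher, beside 0.626% of all genes called either way, and the median was -0.0251. The cytoplasmic actin actb2 had 14782 and 17010 CPM in npsn cells of DP 1 and DP 2, 4220 and 5119 CPM in cdh5 cells, and 4910 and 5385 CPM in neither cells, with a log2 difference of 2.11 ± 0.28 between npsn and cdh5 cells (edgeR adjusted p = 2.13e-05). The actins actb1 and actb2 are nearly identical, and how reads that match both were counted is not given in the sources used here.

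Among the 3 non-muscle myosin heavy chain genes tested, 1 was higher and 1 lower in npsn than in cdh5 cells. The gene myh9a had 686 counts in npsn cells and 3 in cdh5 cells, a level 145-fold higher in npsn cells (exact 95% interval 49.4 to 705; edgeR adjusted p = 0.000531). The gene myh10 had 0 counts in npsn cells and 103 in cdh5 cells, 54.2-fold lower in npsn cells against the floor of 3 counts (edgeR adjusted p = 0.0404). The gene myh9b had 115 counts in npsn cells and 217 in cdh5 cells, with a log2 difference of -1.18 ± 0.83 that did not pass (edgeR adjusted p = 0.426). The filamin crosslinker gene flna had 2.88 and 0 CPM in npsn cells, 222 and 78.5 CPM in cdh5 cells, and 25.6 and 33.7 CPM in neither cells (edgeR adjusted p = 0.0346 for npsn minus cdh5). The others higher in npsn than in cdh5 cells were myl12.1, a myosin light chain gene, and vaspa.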

How the data were processed

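Whole-number counts per gene and cell were used as the authors deposited them. HISAT2 2.1.0, Trimmomatic 0.36 and the build GRCz11 are named, with no role, per the submitters' processing notes. The counting tool, its use of strand, whether it counted molecules or PCR reads, and its treatment of reads that match several genes were not given in the sources used here. The members, gene lists and cell states were chosen with earlier results of these data known, and some genes of the wider actin list are not reported here. Of 93 cells, 88 with 500 or more genes were kept, and 5 were removed. A cell of DP 1 held 15439 to 903548 counts, with a median of 134394, and a cell of DP 2 held 4818 to 379006, with a median of 58292. The libraries share 32 cell numbers and no pair of cells had identical counts (0 pairs). No doublet caller was run on singly sorted cells.

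Counts were summed by library and state, giving a sum for each of 3 states in 2 libraries, and tested with edgeR 4.0.16 (R 4.3.3): TMM scaling, filterByExpr by state, two-sided quasi-likelihood test, 2 residual degrees of freedom, and genes called at a Benjamini-Hochberg adjusted p under 0.05 over 6543 genes. The genes npsn and cdh5 were left out. The library is a block, since every state has cells of both libraries. The deviations of same-library sums correlated over genes at 0.0924 (npsn and cdh5 cells), 0.203 (npsn and neither cells) and 0.136 (cdh5 and neither cells). Each SE is the absolute log2 difference divided by the square root of F. Intervals at 95% are exact Poisson or Clopper-Pearson. Named with full values were the 15 members called in any comparison and the 2 with the most counts in each of 9 roles, 24 in all. Those outside this rule were chosen after their values were seen. Alternatives changed scaling, test (DESeq2 1.42.0), filters, block, minimums and cells.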

Additional observations from a re-analysis of the deposited data

How the results depend on the processing

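Few cells and 2 libraries limit these results, and a single cell gives nearly all npsn counts of DP 2. For npsn minus cdh5 cells, 13 members were called, against 20 with DESeq2 (51.3% of those tested, beside 10.1% of all genes), 5 with lower minimums (100 CPM of npsn, 10 CPM of cdh5), 0 with higher minimums, 6 without the deepest cells and 3 of 18 tested with cells thinned to 20217 counts. For npsn minus neither cells, 6 were called (beside 2.02% of all genes), against 0 with higher minimums (beside 0%) and 1 without the deepest cells (beside 0.926%). For cdh5 minus neither cells, 1 was called (beside 0.352% of all genes), against 3 with robust fitting (beside 1.64%). In that comparison 0 were called with DESeq2, with no replicate block, with lower or higher minimums, with any count of cdh5, without the deepest cells and with thinned cells. The shares over all genes in these settings ran from 0% with lower minimums to 1.62% without the deepest cells. With no replicate block 13, 5 and 0 members were called in the 3 comparisons, beside 3.15%, 1.62% and 0.199% of all genes. The other alternatives stayed within 1.5 times the main counts of 13, 6 and 1. Leaving out the shallowest npsn cell or the cdh5 cell with the fewest endothelial markers, both chosen after seeing the data, ended 0 of the 20 calls. Single libraries leave no residual degrees of freedom, so they gave values without a test, and no called member changed sign in either (0 of 20 calls).

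Directions turned only for members that had not been called in that comparison. Over all tested members, an alternative turned at most 4 in npsn minus cdh5 cells, 2 in npsn minus neither cells and 10 in cdh5 minus neither cells. Those among the 24 members named by rule follow. In cdh5 minus neither cells these were, as log2 differences, cfl1 at 0.12 with DESeq2 size factors, 0.12 with DESeq2, 0.0579 with lower minimums and 0.0247 with any count of cdh5. In the same settings tmsb4x was at 0.11, 0.11, 0.19 and 0.10. With higher minimums arpc5b was at -7.55, pfn2 at -0.96, pfn2l at -1.44, coro1ca at -9.84, capza1a at -0.70 and capgb at 2.30. Without the deepest cells capza1a was at -0.78, capgb at 0.57 and tpm3 at 0.22, and with thinned cells capgb was at 1.17. With lower minimums coro1ca was at -0.49, capza1b at 0.0452 and cotl1 at 0.77, and with any count of cdh5 coro1ca was at -0.52 and cotl1 at 0.58. For coro1ca the value was also -0.22 with no count filter and -0.15 with the legacy quasi-likelihood. In npsn minus cdh5 cells coro1ca was at -0.0367 with DESeq2 and -0.15 without the deepest cells, and capza1a at -0.0283 with DESeq2 size factors and -0.0701 with DESeq2. In npsn minus neither cells wipf1a was at -0.37 without the deepest cells. The cause of these changes was not tested.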

Other observations

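One neither cell of DP 2 had the highest neutrophil marker signal of its state, 34801 CPM, with 274 CPM of npsn and 61952 counts in all. It had 14786 CPM of tmsb4x, 6876 CPM of pfn1, 952 CPM of lcp1, 597 CPM of arpc3, 371 CPM of cotl1 and 96.8 CPM of coro1a. Its tmsb4x, pfn1, arpc3 and coro1a levels were within the range of the npsn cells. The lcp1 level of this cell was above that of every npsn cell, the highest of which had 648 CPM. Its cotl1 level was below that of every npsn cell, the lowest of which had 549 CPM.

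Some genes of actin regulation were left untested by the filter on low counts, which works by state and library sums and not by total counts. Among them the cortactin relative hcls1, known from blood cells, had 164 counts in npsn cells, 0 in cdh5 cells and 5 in neither cells. Of the 164, 163 were in DP 1. The gene enah, whose product lengthens filaments, had 70 counts in npsn cells, all in DP 1, 0 in cdh5 cells and 59 in neither cells.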
